A study of Danio rerio with 16 samples.

Results

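The genes described here are those whose RNA level stood at least 4-fold apart, by means of log2(CPM + 0.5), between a wfikkn1 mutant line and the Tropical 5D wild type of zebrafish, whether the embryos had met TCDD or not. Levels are CPM, the counts of a gene scaled to the library's total. A gene was taken when its group mean reached 2 CPM in any group and the mutant mean minus the wild-type mean of log2(CPM + 0.5) was at least 2 in both exposures or at most -2 in both. The mutated gene itself and ankrd37 were left out. The rule took 86 of 32520 genes in the count table, or 0.534% of the 16096 genes with a group mean of at least 2 CPM. Of the 86, 18 were higher in the mutants (0.112%) and 68 were lower (0.422%). The genes were chosen by these measured line differences, which are therefore given below as a description and without a test.

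RNA was sequenced from whole embryos at 48 hours post fertilization (hpf). The groups were wfikkn1 mutants given TCDD (n = 4), wfikkn1 mutants given DMSO (n = 4), wild type given TCDD (n = 3) and wild type given DMSO (n = 3). Every group was treated for 1 h at 4 hpf, with 1 ng/mL TCDD (2,3,7,8-tetrachlorodibenzo-p-dioxin, which activates the aryl hydrocarbon receptor) or with its vehicle, 0.1% DMSO. A sample pooled 9 embryos from 1 dish. The mutant allele, the number of founders and the breeding history of the mutant line relative to the wild type are not given in the sources used here, so the mutation and the rest of the line's genome cannot be told apart. In bulk RNA of whole embryos, fewer cells of a type and less RNA per cell cannot be told apart either.

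Laboratory zebrafish are not inbred to uniformity, and lines kept apart differ at many places in their genomes. Parts of the zebrafish genome, among them the clusters of class I genes of the major histocompatibility complex (MHC), carry different sets of gene copies on different chromosomes of the population. Where a genome assembly holds 2 near-identical gene models, reads of a line are assigned to whichever model they match better. Counts at such models are therefore less certain than counts at genes without a copy.

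The libraries held 20597475 to 26884477 counts each, and 3 counts corresponded to 0.112 to 0.146 CPM. The mutated gene, wfikkn1, had 0, 0, 0.182 and 0.123 CPM in mutant DMSO libraries, against 0.431, 0.549 and 0.82 CPM in wild-type DMSO libraries. With TCDD it had 0.547, 0.658, 0.976 and 0.866 CPM in mutants, against 9.54, 18.3 and 23.3 CPM in wild type, so the libraries followed their line labels at this gene. No genome sequence or table of protein sequences was used here, so copies are compared by their counts.

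Across the 18 higher genes the median line difference was 2.87 in DMSO and 2.42 in TCDD on the log2(CPM + 0.5) scale, and across the 68 lower genes it was -2.77 and -2.85. The CPM ranges of the lines did not overlap over all 14 libraries in 83 of the 86 genes, against 6.37% of the 16096 genes, a count that the choice of genes largely fixes. The exceptions were psmb5, si:ch211-181d7.1 and idh3g. In 14 genes, 2 higher and 12 lower, no library of the low line had more than 3 counts. Of the 16096 genes 16 (0.0994%) met this state, and the choice of genes largely fixes the count of 14 too. Among the 14, the lower gene si:ch211-214b16.2 had 0 counts in all 8 mutant libraries. It had 2.63, 3.22 and 3.68 CPM in wild-type TCDD libraries and 4.66, 4.3 and 2.55 CPM in wild-type DMSO libraries. Set against the mean floor of 3 counts per mutant library, it was at least 29.7-fold lower in mutants in DMSO and at least 25.1-fold lower in TCDD.

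**Figure D1:**
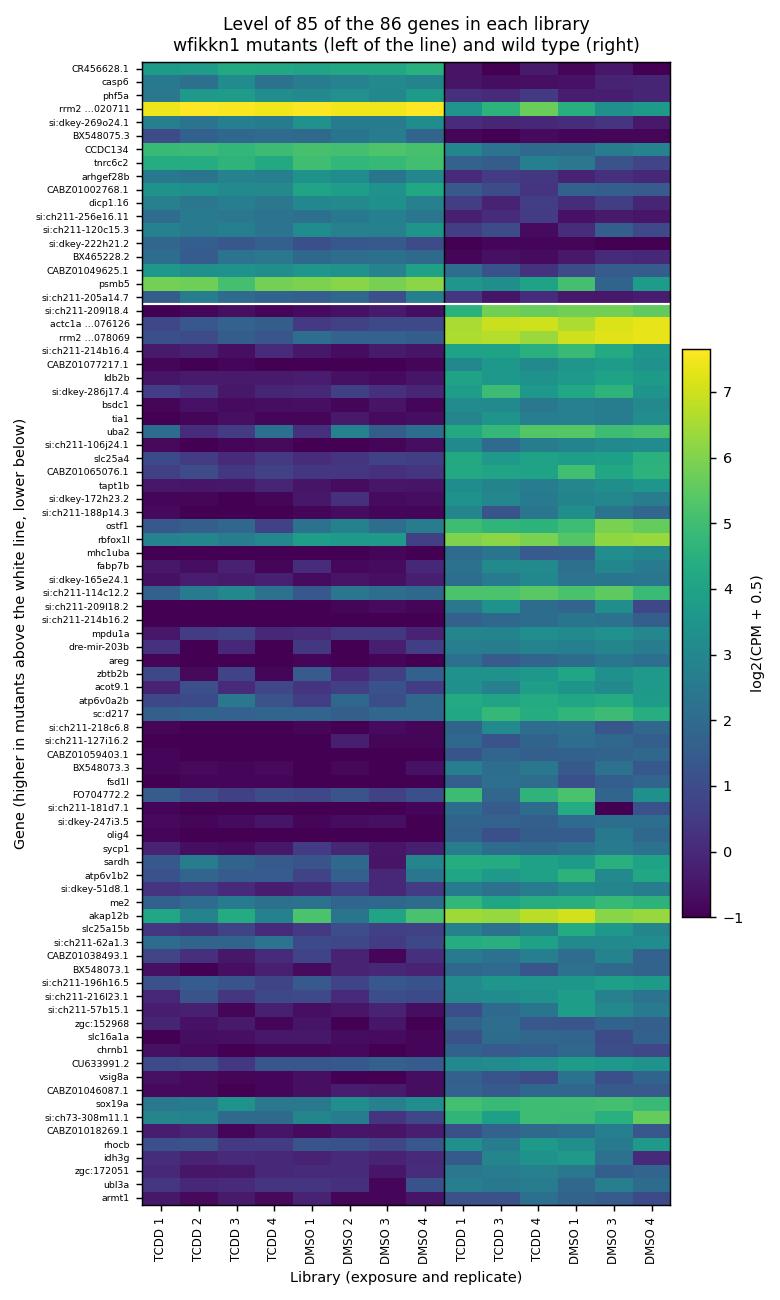
Level of 85 of the 86 genes (rows) in each of the 14 libraries (columns), as log2(CPM + 0.5), with the wfikkn1 mutants left of the vertical line and wild type right of it. The 18 genes above the white line were higher in mutants and the 67 below it lower, in both exposures, as the rule required.

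The plot of the genes by library also shows where libraries of the same line differ. The median within-group SD of log2(CPM + 0.5) was 0.232 in mutants with TCDD, 0.230 in mutants with DMSO, 0.309 in wild type with TCDD and 0.351 in wild type with DMSO. Over the tested genes with a group mean of at least 2 CPM it was 0.135, 0.144, 0.163 and 0.196 in the same order. The widest spread was that of si:ch211-181d7.1, which had 19.7, 0 and 1.77 CPM in wild-type DMSO libraries, against 0 to 1 counts in every mutant library. The gene idh3g, a subunit of the mitochondrial isocitrate dehydrogenase that uses NAD, had 0.388, 0.558, 0.409 and 0.534 CPM in mutant DMSO libraries, against 12.3, 4.26 and 0.518 CPM in wild-type DMSO libraries. The third was FO704772.2, with 2.34, 1.58, 1.07 and 1.46 CPM in mutant TCDD libraries, against 30.2, 3.14 and 24 CPM in wild-type TCDD libraries. In these 3 the spread lay among the wild-type pools. The added 0.5 narrows the spread at low levels, and mutants had the lower level in 68 of the 86 genes. Mutant pools also differed widely at some genes. In mutant DMSO libraries rbfox1l ran from 1.07 to 14 CPM, and in mutant TCDD libraries zbtb2b ran from 0.0393 to 1.33 CPM. No library was nearest to the other line throughout: within its group, each wild-type library was the nearest for 25 to 34 of 86 genes, and each mutant library for 17 to 26 of 82.

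The gene rrm2 encodes the small subunit of ribonucleotide reductase, which makes the deoxynucleotides used for DNA synthesis. It stood in the count table under 2 gene IDs, and both were taken, in opposite directions. ENSDARG00000020711 had 193, 178, 176 and 198 CPM in mutant DMSO libraries, against 21.2, 9.61 and 12.6 CPM in wild-type DMSO libraries. In TCDD it had 172, 201, 189 and 178 CPM in mutants, against 11, 23.8 and 51.8 CPM in wild type. The mutant libraries were all above the wild-type libraries, and wild-type TCDD replicate 4 was the highest of its line.

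ENSDARG00000078069 showed the reverse. It had 3.79, 2.83, 2.77 and 2.47 CPM in mutant DMSO libraries, against 131, 153 and 162 CPM in wild-type DMSO libraries. With TCDD its level was 1.68, 1.54, 2.42 and 1.97 CPM in mutants, against 95.4, 104 and 80.3 CPM in wild type. Its log2 line differences were -5.44 (DMSO) and -5.29 (TCDD), and those of the other copy were 3.71 (DMSO) and 2.92 (TCDD).

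The sum of both copies differed far less than either copy. It was 197, 181, 178 and 200.5 CPM in mutant DMSO libraries, against 153, 162 and 174 CPM in wild-type DMSO libraries. In TCDD it was 174, 202, 191 and 180.4 CPM in mutants, against 106, 128 and 132 CPM in wild type. The log2 difference of the sum was 0.21 in DMSO and 0.62 in TCDD, and the sums of the lines still did not overlap in either exposure. The share of the pair's counts that fell on ENSDARG00000078069 was 0.76% to 1.92% in the 8 mutant libraries. In wild type it was 89.7, 81.3 and 60.8% with TCDD and 86.1, 94.1 and 92.8% with DMSO.

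Other genes of nucleotide synthesis differed far less between the lines than either rrm2 copy. Of 19 tested genes of that list that are not among the 86, edgeR's adjusted p in DMSO called 0 higher and 2 lower in mutants, with 3 higher at an unadjusted p under 0.05 and 0 higher in DESeq2 or limma-voom. Of all 20098 tested genes 16.8% were called, 8.21% higher and 8.6% lower. Their median was -0.08, beside 0.00 over all tested genes. In TCDD 6 were higher and 1 lower, with a median of 0.19 beside 0.00, where 27.6% of tested genes were called, 10.7% higher and 16.9% lower. The large subunit gene rrm1 had a log2 fold change of 0.06 ± 0.09 in DMSO (edgeR adjusted p = 0.686) and of 0.40 ± 0.09 in TCDD (edgeR adjusted p = 0.00392). The thymidylate synthase gene tyms was 0.53 ± 0.13 higher in mutants in TCDD (edgeR adjusted p = 0.00697). The purine synthesis gene atic was lower in mutants in both exposures, by edgeR log2 fold changes of -0.92 ± 0.09 in DMSO and -0.52 ± 0.09 in TCDD (adjusted p = 3.91e-06 and 0.000395). Of 15 other cell cycle genes, 2 were called higher and 1 lower in DMSO, and 6 higher and 0 lower in TCDD, where an unadjusted p under 0.05, DESeq2 and limma-voom also gave 0 lower. In edgeR mcm7, a subunit of the replicative helicase, had a log2 fold change of 0.72 ± 0.13 there (adjusted p = 0.000829).

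An alpha actin, a filament protein of muscle, gave the second pair. The taken gene, ENSDARG00000076126, is actc1a, after cardiac alpha actin, in the authors' deposited table and actc1c in the table of gene names. The same deposited table lists human ACTA1, skeletal alpha actin, for it and for the other ID named actc1a. It had 0.874, 1.12, 1.36 and 1.4 CPM in mutant DMSO libraries, against 95.4, 143 and 162 CPM in wild-type DMSO libraries. Under TCDD it reached 1.29, 2.06, 2.79 and 2.4 CPM in mutants, against 93.6, 123 and 129 CPM in wild type. Its log2 line differences were -6.29 (DMSO) and -5.48 (TCDD), and the lowest wild-type library lay far above the highest mutant library.

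The other gene ID named actc1a, ENSDARG00000042535, was not among the 86. The pair was looked at with its opposite change in these data already known. The p-values of its line difference therefore describe that change and are no independent test of it. It had 130.1, 126, 129.7 and 168 CPM in mutant DMSO libraries, against 66.2, 75.1 and 96.8 CPM in wild-type DMSO libraries. In TCDD it had 226, 325, 272 and 229.7 CPM in mutants, against 58.6, 72.6 and 153 CPM in wild type. It was higher in mutants by a log2 fold change of 0.77 ± 0.25 in DMSO (edgeR adjusted p = 0.0455) and by 1.45 ± 0.26 in TCDD (edgeR adjusted p = 0.00052). The TCDD call was kept in every alternative run. The DMSO call was lost in DESeq2 (adjusted p = 0.0784). It was also lost without wild-type DMSO replicate 1 or 3, any of the 4 mutant DMSO replicates, or mutant TCDD replicate 1, 3 or 4, with log2 fold changes of 0.66 to 0.82 and edgeR adjusted p of 0.0514 to 0.133. A further ID, ENSDARG00000079111, named actc1c, was lower in mutants, with log2 fold changes of -2.42 ± 0.46 in DMSO and -2.29 ± 0.43 in TCDD (edgeR adjusted p = 0.00179 and 0.000813).

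The sum of the 2 IDs named actc1a was 131, 127, 131 and 169.5 CPM in mutant DMSO libraries, against 162, 218 and 259 CPM in wild-type DMSO libraries. In TCDD the sum was 227, 327, 275 and 232 CPM in mutants, against 152, 196 and 282 CPM in wild type. Its log2 difference was -0.59 in DMSO and 0.37 in TCDD, so the sign of the sum changed with the exposure. ENSDARG00000076126 held 0.567% to 1.04% of the pair's counts in the mutant libraries. In wild type it held 61.5, 62.9 and 45.7% with TCDD and 59, 65.6 and 62.5% with DMSO. Wild-type TCDD replicate 4 thus had the lowest wild-type share in the rrm2 pair and in the actin pair. Of 13 other actin and partner genes, 1 was called higher and 6 lower in DMSO (median -0.33), and 1 higher and 1 lower in TCDD (median -0.04). These and the muscle counts below are to be read beside the shares of all tested genes. Those were 8.21% higher and 8.6% lower in DMSO, and 10.7% higher and 16.9% lower in TCDD. These 13 actin and partner genes include the copies described above. The gene called higher in each exposure was ENSDARG00000042535. The gene called lower in TCDD was ENSDARG00000079111, which was also among those lower in DMSO. Of 7 other cardiac muscle genes, 1 was higher and 3 lower in DMSO, and 1 higher and 2 lower in TCDD. The higher gene was again ENSDARG00000042535 in each exposure. The summed cardiac list, all members included, ran from 356 to 466 CPM in mutant TCDD and 261 to 297 in mutant DMSO. In wild type it ran from 326 to 460.2 with TCDD and 317 to 439 with DMSO. Much of this sum came from the 2 actc1a IDs themselves. Their mean sum was 265 CPM in mutant TCDD, 140 in mutant DMSO, 210 in wild-type TCDD and 213 in wild-type DMSO. The list sum is thus no separate measure of cardiac muscle, and its part in the actc1a difference was not tested. Of 13 fast muscle genes, 1 was higher and 7 lower in DMSO, and 0 higher and 3 lower in TCDD by edgeR, where an unadjusted p under 0.05, DESeq2 and limma-voom also gave 0 higher. The gene higher in DMSO was mylpfa, with low means of 0.859 CPM in mutant DMSO and 0.102 CPM in wild-type DMSO. The fast muscle list summed to 67620 to 75068 CPM in mutant TCDD and 55088 to 61070 in mutant DMSO, against 67778 to 80482 in wild type with TCDD and 63306 to 71440 in wild type with DMSO, and its part was not tested either.

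**Figure D2:**
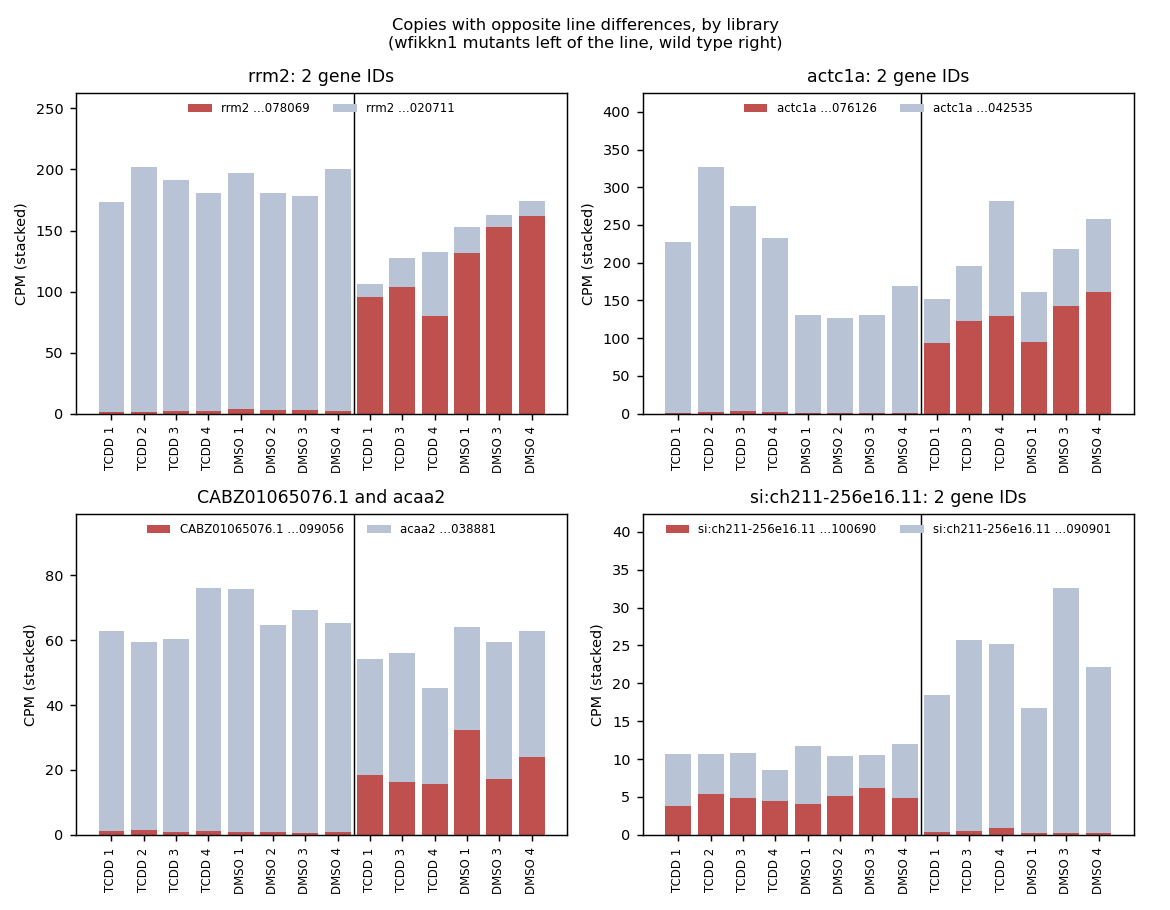
CPM of gene copies by library, stacked, for 4 pairs, with wfikkn1 mutants left of the line and wild type right of it; the red part is the gene taken by the rule (for rrm2, where both were taken, ENSDARG00000078069) and the grey-blue part its copy. In the rrm2, actc1a and acaa2 panels the red part is near 0 in all 8 mutant libraries. The stacked height differs far less between the lines, though for rrm2 the lines do not overlap in either exposure. The lower right panel shows the other direction.

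The plot of copies by library includes 2 further pairs. CABZ01065076.1, for which the authors' deposited table lists human ACAA2, had 0.825, 0.781, 0.636 and 0.74 CPM in mutant DMSO libraries, against 32.4, 17.2 and 23.9 CPM in wild-type DMSO libraries. The gene acaa2, for a thiolase of mitochondrial fatty acid breakdown, was higher in mutants by a log2 fold change of 0.83 ± 0.12 in DMSO and 0.84 ± 0.12 in TCDD (edgeR adjusted p = 0.000218 and 9.84e-05). The log2 difference of their sum was 0.14 in DMSO and 0.31 in TCDD, and CABZ01065076.1 held 0.918% to 2.51% of it in mutants, against 28.9% to 50.5% in wild type. This pair was found by the human gene and was chosen after its values were seen.

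ENSDARG00000100690 and ENSDARG00000090901 share 1 name, built from a clone. The pair is described because the copy differed the other way by at least 1 on the log2 scale in both exposures. The p-values of the copy's line difference are therefore a description and no independent test. ENSDARG00000100690, taken as higher, had 4.08, 5.17, 6.23 and 4.81 CPM in mutant DMSO libraries, against 0.172, 0.275 and 0.216 CPM in wild-type DMSO libraries. ENSDARG00000090901 had 7.62, 5.24, 4.36 and 7.19 CPM in mutant DMSO libraries, against 16.6, 32.3 and 21.9 CPM in wild-type DMSO libraries, and was lower by a log2 fold change of -1.98 ± 0.23 in DMSO and -2.03 ± 0.23 in TCDD (edgeR adjusted p = 2.47e-05 and 1.87e-05). Here the sum did not even out: its log2 difference was -1.01 in DMSO and -1.14 in TCDD. The gene taken held 34.9% to 58.8% of the pair in mutants, against 0.843% to 3.75% in wild type.

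Most copies by name did not mirror the genes taken. Of the 86, 21 shared an identical name, letter case aside, with another gene ID in the authors' deposited tables or the table of gene names. Of the 21 copies that are not among the 86, 16 were tested. In DMSO 1 of the 16 was higher, 3 were lower and 12 were not called by edgeR. In TCDD 1 was higher, 4 were lower and 11 were not called. Of all tested genes 8.21% were called higher and 8.6% lower in DMSO, and 10.7% and 16.9% in TCDD. The 16 include copies described above. The copy called higher in each exposure was ENSDARG00000042535. ENSDARG00000079111 and ENSDARG00000090901 were among those lower in each exposure, and the latter moved against the gene taken. The copy of ldb2b, a co-factor of LIM-domain transcription factors, was ldb2a, with 0.26 ± 0.09 in DMSO (edgeR adjusted p = 0.0577) and -0.37 ± 0.09 in TCDD (edgeR adjusted p = 0.00472). Without wild-type DMSO replicate 3 or wild-type TCDD replicate 1 the DMSO value of ldb2a passed the threshold (0.32 and 0.26, adjusted p = 0.0376 and 0.0377). The copy of acot9.1, an acyl-CoA thioesterase gene, was acot9.2, which was lower in both exposures (edgeR log2 fold change -2.85 ± 0.39 and -1.19 ± 0.37, adjusted p = 0.00013 and 0.0229), and the TCDD call was lost without wild-type TCDD replicate 4 or mutant TCDD replicate 1, 3 or 4 (log2 fold change -1.17 to -1.01, adjusted p = 0.0506 to 0.0929). By shared human gene, mpdu1b rose in mutants by 0.50 ± 0.09 and 0.54 ± 0.09 (edgeR adjusted p = 0.00128 and 0.000333), beside the fall of its relative mpdu1a described further on.

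Apart from rrm2, 7 of the higher genes carried a gene symbol of their own and not a clone-based name. Of these the widest in DMSO were phf5a, tnrc6c2 and casp6. The gene phf5a, for a part of the SF3b splicing complex, had 8.4, 9.89, 7.77 and 12.7 CPM in mutant DMSO libraries, against 0.302, 0.32 and 0.432 CPM in wild-type DMSO libraries. The gene casp6, for an executioner caspase, had 5.68, 6.7, 8.0 and 7.07 CPM in mutant DMSO libraries, against 0.172, 0.412 and 0.432 CPM in wild-type DMSO libraries. The gene tnrc6c2, of the TNRC6 family that works with Argonaute in microRNA silencing, had 31.5, 26.1, 27.2 and 32.3 CPM in mutant DMSO libraries, against 4.87, 1.83 and 1.25 CPM in wild-type DMSO libraries. In each of the 3 every mutant library lay above every wild-type library.

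The gene psmb5, for a catalytic beta subunit of the proteasome, was the higher gene whose lines overlapped. It had 60.7, 68.5, 59 and 70.6 CPM in mutant DMSO libraries, against 34.1, 2.93 and 13.3 CPM in wild-type DMSO libraries, and 56.5, 53.1, 33.9 and 57.3 CPM in mutant TCDD libraries, against 10.9, 9.42 and 15.2 CPM in wild-type TCDD libraries. Wild-type DMSO replicate 1 lay above mutant TCDD replicate 3. CCDC134 ran from 26 to 38 CPM in mutants, against 3.45 to 7.36 CPM in wild type, and the lines did not overlap. The widest higher difference of all was at CR456628.1, a processed transcript without a gene name, with log2 differences of 5.00 (DMSO) and 4.63 (TCDD) and at most 6 counts in any wild-type library.

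Among the lower genes, si:ch211-209l18.4 had the widest difference, with 0.0971, 0.149, 0.273 and 0.123 CPM in mutant DMSO libraries, against 55.9, 55.6 and 46.2 CPM in wild-type DMSO libraries. The named genes of the widest lower differences after actc1a and rrm2 have varied known roles. The gene ldb2b ran from 0.0909 to 0.291 CPM in mutants, against 10.1 to 15.6 CPM in wild type. The gene tia1, for an RNA-binding protein of stress granules, ran from 0 to 0.26 CPM in mutants, against 5.86 to 10.8 CPM in wild type. Of tapt1b, a gene for a transmembrane protein, mutants had 0.112 to 0.433 CPM, against 5.88 to 11.1 CPM in wild type. Mutant libraries held at most 7 counts of ldb2b, 7 of tia1 and 11 of tapt1b.

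Others kept a measurable level in mutants. The gene uba2, for a subunit of the SUMO activating enzyme, had 0.631, 6.43, 2.41 and 3.82 CPM in mutant DMSO libraries, against 40.8, 30.7 and 34.4 CPM in wild-type DMSO libraries. The gene slc25a4, for a mitochondrial ADP/ATP carrier, had 0.583, 0.744, 1.14 and 1.03 CPM in mutant DMSO libraries, against 13.5, 14.1 and 22.4 CPM in wild-type DMSO libraries. The gene rbfox1l, for a muscle splicing factor in zebrafish, had 14, 12.2, 12 and 1.07 CPM in mutant DMSO libraries, against 40.3, 73.5 and 80.0 CPM in wild-type DMSO libraries. Mutant DMSO replicate 4 was far below the other 3 mutant DMSO pools at rbfox1l. Both lines stayed apart at each of the 3 genes.

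The lower genes included 2 for subunits of the vacuolar proton pump. Of atp6v1b2, mutants had 0.50 to 4.77 CPM, against 8.19 to 23.8 CPM in wild type. Of atp6v0a2b, mutants had 0.971 to 4.93 CPM, against 13.4 to 19.7 CPM in wild type. Their copies by name, listed under the human symbols, were not called in either exposure by edgeR (adjusted p = 0.599 and 0.0608 for the copy of atp6v1b2, 0.752 and 0.812 for that of atp6v0a2b, in DMSO and TCDD). The microRNA gene dre-mir-203b had 17, 0, 7 and 25 counts in mutant DMSO libraries, against 141, 157 and 133 counts in wild-type DMSO libraries. Poly(A)-selected libraries measure a microRNA's precursor transcript at most, so these counts say nothing of the mature microRNA.

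The genes nearest the threshold set the scale of the rule. Just inside on the higher side lay si:ch211-205a14.7, psmb5 and CABZ01049625.1, whose smaller difference of the 2 exposures was 2.0, 2.04 and 2.09. Just outside lay egr1, si:dkey-16p6.1 and zgc:194906, at 1.99, 1.97 and 1.96 in DMSO. On the lower side armt1, ubl3a and zgc:172051 lay just inside, at -2.02 each. Just outside lay mthfd1l and igsf9a, at -1.99 each in DMSO, and si:ch211-236g6.1, at -1.99 in TCDD.

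Genes of immune families were present on both sides. MHC class I proteins show peptides to T cells, and the DICP family consists of fish immunoglobulin-domain receptors encoded near MHC genes. The MHC class I gene mhc1uba had 0, 0, 0 and 0 counts in mutant TCDD libraries and 0, 0, 1 and 0 in mutant DMSO libraries. Wild type had 80, 114 and 51 counts with TCDD and 58, 195 and 168 with DMSO. Set against the floor of 3 counts per library it was at least 27.5-fold lower in mutants in TCDD.

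The gene dicp1.16 went the other way, with 7.77, 7.89, 9.64 and 6.33 CPM in mutant DMSO libraries, against 0.604, 1.01 and 0.432 CPM in wild-type DMSO libraries. With TCDD its level was 6.25, 4.83, 6.04 and 4.92 CPM in mutants, against 0.981, 0.403 and 0.987 CPM in wild type. No library of mutants overlapped with one of wild type.

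Other MHC class I genes also moved both ways. The 5 counted here are not among the 86, and edgeR called each of them in at least 1 exposure. Of these 5, 2 were higher and 2 lower in DMSO, and 3 were higher and 1 lower in TCDD. Any called in neither exposure are not counted. The share called among the 5 is thus fixed by their choice. It cannot be set beside that of all tested genes, 16.8% in DMSO and 27.6% in TCDD. The gene mhc1zka was higher in mutants (edgeR log2 fold change 3.47 ± 0.62 and 3.48 ± 0.55, adjusted p = 0.0012 and 0.000196), with a mean of 0.550 CPM in mutant DMSO against 0.0432 CPM in wild-type DMSO. The gene mhc1zja was lower (edgeR log2 fold change -3.78 ± 0.77 and -1.98 ± 0.64, adjusted p = 0.00308 and 0.0294), with a mean of 0.0493 CPM in mutant DMSO against 0.777 CPM in wild-type DMSO. These genes were named after their values were seen, and their low counts limit them.

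A pair of genes without a name of their own, si:ch73-308m11.1 and CABZ01059403.1, carry human GIMAP genes in the authors' deposited table. GIMAP proteins are GTPases known from lymphocytes of mammals. The gene si:ch73-308m11.1 had 7.43, 5.77, 0.773 and 1.27 CPM in mutant DMSO libraries, against 30.1, 21.9 and 47.9 CPM in wild-type DMSO libraries. Mutant DMSO replicates 3 and 4 were lower than the other mutant pools, and no mutant library reached the lowest wild-type library. CABZ01059403.1 had 0 or 1 counts in each mutant library, against 1.87 to 3.19 CPM in wild type.

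Of 14 other genes tied to the same human GIMAP genes, 4 were higher and 8 lower in DMSO, and 3 higher and 5 lower in TCDD, with 13 called in at least 1 exposure. Of all tested genes 8.21% were called higher and 8.6% lower in DMSO, and 10.7% higher and 16.9% lower in TCDD. Human genes were known only for genes in the authors' deposited tables, which list genes significant in at least 1 of their comparisons. This way of finding relatives thus largely fixes how many were called, and their shares are not comparable with those of all tested genes. Among the 14, si:dkeyp-52c3.7 (ENSDARG00000002097) had 0.777, 1.26, 0.773 and 0.904 CPM in mutant DMSO libraries and 0 counts in all 6 wild-type libraries, so it moved against the 2 GIMAP-related genes of the rule. Another, FO681314.1, had 0, 0.0372, 0 and 0 CPM in mutant DMSO libraries, against 3.1, 1.1 and 1.38 CPM in wild-type DMSO libraries. The gene si:ch211-214b16.2, absent from the counts of all mutant libraries, is tied to human RFPL genes in the same table, as are finTRIM genes (ftr). Of its 20 relatives, 3 were higher and 7 lower in DMSO, and 5 higher and 8 lower in TCDD. These relatives were also found by human gene, so their shares are not comparable with those of all tested genes either. The finTRIM gene ftr69 was lower by a log2 fold change of -3.85 ± 0.58 in DMSO and -3.06 ± 0.63 in TCDD (edgeR adjusted p = 0.000298 and 0.00164). The choice by human gene was made after the values were seen. Near-identical members of such families could share reads, which was not checked by sequence here, so each of these counts is uncertain.

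Read over the whole set of immune families, the share called was close to that of all genes. Of 403 tested genes that are not among the 86, 37 were higher and 38 lower in DMSO, with a median of -0.04, where 16.8% of all tested genes were called. In TCDD 50 were higher and 54 lower, with a median of 0.02, where 27.6% were called. The families were gathered by the start of the symbol, which also takes in genes with other roles, such as casp6. Of 16 leukocyte markers, 2 were higher and 2 lower in DMSO and 2 higher and 1 lower in TCDD. The summed level of the leukocyte list was 130 to 136 CPM in mutant TCDD, 159 to 180.1 CPM in mutant DMSO, 143 to 173 CPM in wild type with TCDD and 168 to 195 CPM in wild type with DMSO, and its part in the immune gene differences was not tested. Some other cell marker lists also differed by line. The erythroid list summed to 652 to 806 CPM in mutant TCDD and 460 to 588 in mutant DMSO. In wild type it summed to 979 to 1382 with TCDD and 989.6 to 1303 with DMSO. Of its 5 tested genes, 0 were higher and 3 lower in DMSO, and 0 higher and 2 lower in TCDD. An unadjusted edgeR p under 0.05, DESeq2 and limma-voom also gave 0 higher. The epidermis list summed to 2010 to 2291 CPM in mutant TCDD and 1454 to 1536 in mutant DMSO, against 2305 to 5717 in wild type with TCDD and 3114 to 7248 in wild type with DMSO, and both of its tested genes were lower in DMSO and 1 in TCDD. The keratin gene krt4 was lower by edgeR log2 fold changes of -2.18 ± 0.28 in DMSO and -1.16 ± 0.27 in TCDD (adjusted p = 6.31e-05 and 0.00456). Of 5 lens genes edgeR called 0 in DMSO (1 lower at an unadjusted p under 0.05) and 1 higher in TCDD. Of 4 neuron genes it called 0 in either exposure (2 lower in DMSO at an unadjusted p). Of 5 liver and yolk genes 1 was lower in DMSO, and 1 higher and 1 lower in TCDD. In TCDD the neuron sum was 2524 to 2750 CPM in mutants against 2782 to 2979 in wild type. The liver and yolk sum was 16681 to 18706 against 19064.5 to 24275. In DMSO the lines overlapped in both lists. There the neuron sum was 2987 to 3140 CPM in mutants against 2687 to 3288 in wild type. The liver and yolk sum in DMSO was 15273 to 19782.5 against 17637 to 21138.

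**Figure D3:**
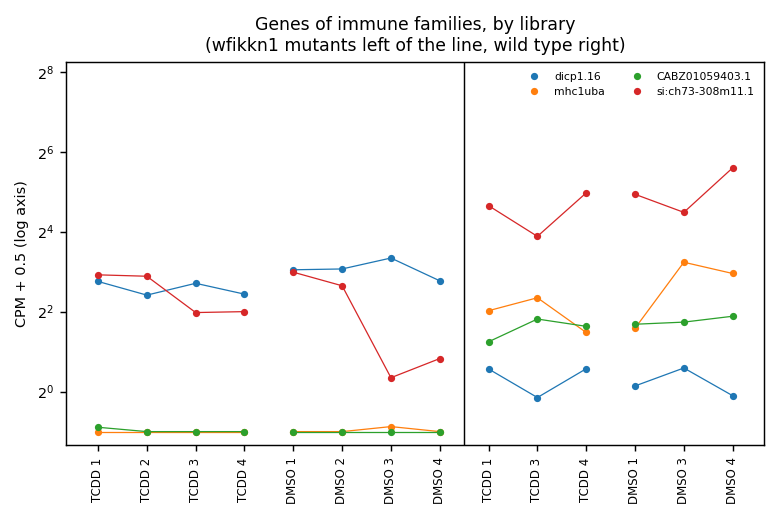
Level of 4 genes of immune families in each library, as CPM + 0.5 on a log axis, with wfikkn1 mutants left of the line and wild type right of it; lines join libraries of the same group. The gene dicp1.16 was higher in all mutant libraries than in any of wild type, and mhc1uba, si:ch73-308m11.1 and CABZ01059403.1 were lower.

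Where the genes could be placed, many neighbours had both been taken. Gene order came from RefSeq's GRCz12tu, a later assembly than that of the counts, and was used only to find neighbours. Of 85 of the genes, 43 could be placed by name. Of these, 14 (32.6%) had another of the placed genes within 10 genes, against 1.7% of the 14996 placed tested genes. Within 50 genes it was 44.2% against 7.94%. All 14 were lower in mutants, and they formed 5 runs. Neither rrm2 ID nor actc1a could be placed, since their names were ambiguous. Of the placed genes 10 (23.3%) lay on 1 chromosome, which held 5.49% of the placed tested genes, and 19 of 25 chromosomes held at least 1. The chromosome of wfikkn1 held 5 of them (11.6% against 4.34%), and 0 of the 5 lay within 50 genes of it.

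The longest run held si:ch211-114c12.2, slc25a15b, mpdu1a and sox19a. Of si:ch211-114c12.2 mutants had 2.09 to 7.71 CPM, against 29.6 to 44.8 CPM in wild type. The gene mpdu1a, which acts in the use of dolichol-linked sugars, ran from 0.234 to 1.12 CPM in mutants, against 6.97 to 9.93 CPM in wild type. The gene sox19a, a SoxB1 transcription factor of the early embryo and nervous system, ran from 4.84 to 10.2 CPM in mutants, against 27.7 to 34.2 CPM in wild type. The ornithine carrier gene slc25a15b ran from 0.551 to 1.56 CPM in mutants, against 4.27 to 19.5 CPM in wild type. Each of the 4 was separate between the lines.

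Genes between and beside them that the rule had not taken were lower as well. Of 3 tested genes lying between these or within 5 genes of the ends, 3 were lower in each exposure by edgeR and 0 higher. The gene gps2, a co-repressor subunit, was lower by a log2 fold change of -2.08 ± 0.26 in DMSO and -2.14 ± 0.26 in TCDD (edgeR adjusted p = 4.62e-05 and 3.16e-05). The gene mrps31, of the mitochondrial ribosome, was -2.32 ± 0.31 and -1.95 ± 0.29 (edgeR adjusted p = 8.8e-05 and 0.000134). Over all 5 runs, 12 such genes were tested. Of these, 8 were lower in DMSO and 7 in TCDD, where 8.6% and 16.9% of all tested genes were called lower, and 0 were higher in either, also at an unadjusted p under 0.05, in DESeq2 and in limma-voom. The window around the runs was chosen after the values were seen. Around all 43 placed genes, 241 tested genes outside the rule lay within 10 genes, and their calls went both ways. In DMSO 20 of them were higher and 42 lower by edgeR (25.7% called), against 16.8% of all tested genes called in either direction. In TCDD 31 were higher and 59 lower (37.3%), against 27.6%.

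A run of 3 adjacent genes held armt1, zbtb2b and akap12b. The gene akap12b, for a scaffold of protein kinase A, had 36.3, 4.65, 16.3 and 35.2 CPM in mutant DMSO libraries, against 134, 68 and 79 CPM in wild-type DMSO libraries. With TCDD it stood at 17.1, 6.85, 19.4 and 6.45 CPM in mutants, against 84.9, 79.2 and 108 CPM in wild type. The zinc finger gene zbtb2b had 1.33, 0.0878, 1.21 and 0.0393 CPM in mutant TCDD libraries and 2.28, 0.521, 1.05 and 2.71 CPM in mutant DMSO libraries, against 9.7 to 16.5 CPM in wild type. Mutant DMSO replicate 2 and mutant TCDD replicates 2 and 4 were lowest at both genes. At the microRNA gene dre-mir-203b, which could not be placed by name, the same 3 pools had 0 counts, and the other mutant pools had 7 to 25. The coinciding pools were noticed after the values were seen. The gene mthfd1l, at the end of this run and just outside the rule, was lower by a log2 fold change of -1.83 ± 0.40 in DMSO and -2.19 ± 0.41 in TCDD (edgeR adjusted p = 0.00531 and 0.000814).

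A further run of 3 adjacent genes held areg, ostf1 and me2. The gene areg, for the epidermal growth factor receptor ligand amphiregulin, had 0 to 1 counts in each mutant library, against 2.29 to 4.8 CPM in wild type. The gene me2, for the mitochondrial malic enzyme, ran from 2.74 to 5.3 CPM in mutants, against 16.9 to 27.2 CPM in wild type. The lines did not overlap at either. Of 5 tested genes beside this run, 1 was called lower in each exposure and 0 higher. The fourth run held olig4, a bHLH transcription factor gene, and bsdc1, adjacent to each other. Of olig4 mutants had 0 to 1 counts per library, against 1.65 to 5.12 CPM in wild type. Of bsdc1 mutants had 0.0372 to 0.182 CPM, against 4.98 to 8.47 CPM in wild type. The fifth held si:ch211-127i16.2 and vsig8a, beside igsf9a, which was lower by a log2 fold change of -2.53 ± 0.32 and -3.66 ± 0.36 (edgeR adjusted p = 6.22e-05 and 3.79e-06). Names of clones showed 3 more pairs from a shared clone, all lower in both members.

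**Figure D4:**
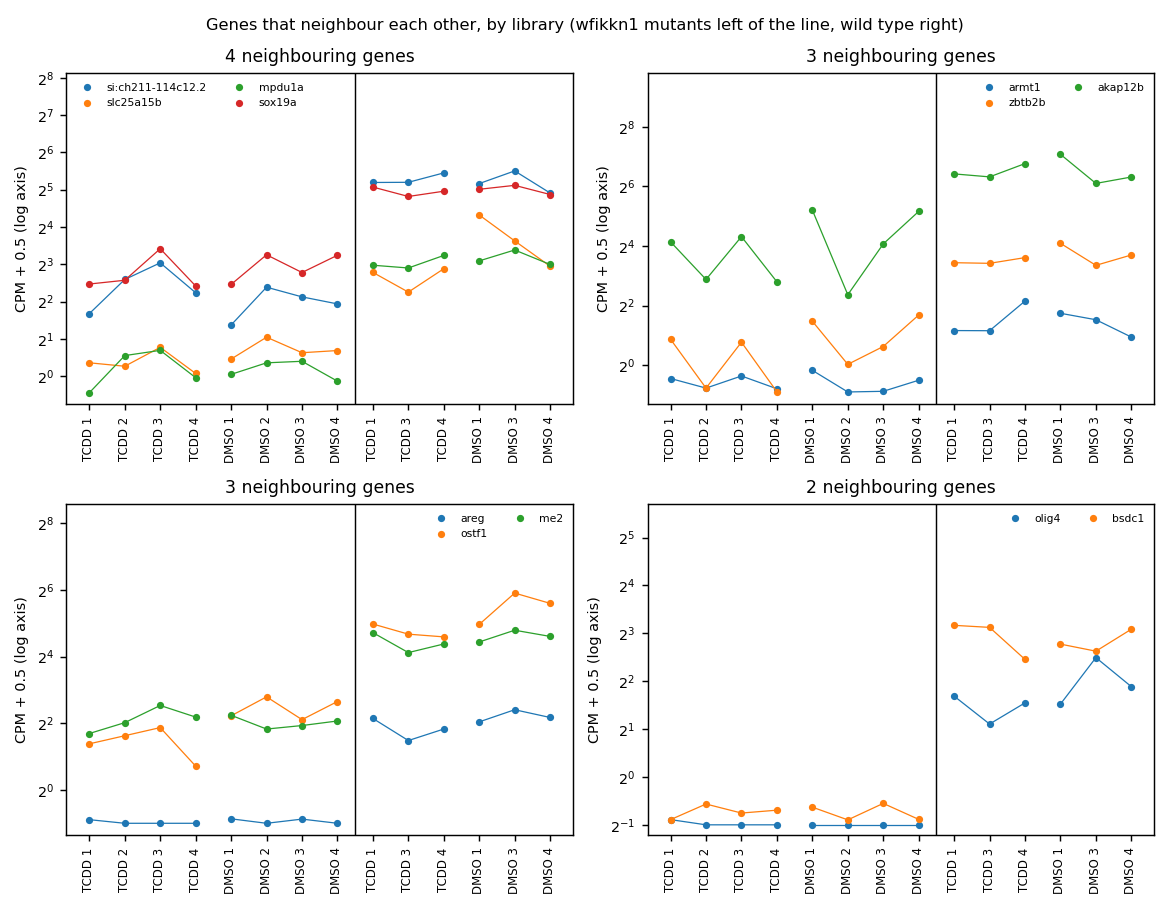
Level of neighbouring genes in each library, as CPM + 0.5 on a log axis, for 4 of the 5 runs, with wfikkn1 mutants left of the line and wild type right of it; lines join libraries of the same group. All genes shown lay lower in the mutant libraries, and akap12b and zbtb2b dipped in the same mutant pools.

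Calls with TCDD within a line were made for 13 of the 86 genes. The rule required a line difference in both exposures, so a gene whose difference TCDD removed could not enter. In mutants edgeR called 2 higher and 7 lower with TCDD and left 77 uncalled, which is 10.5% called, against 36.1% of all tested genes (17.5% higher and 18.6% lower). In wild type it called 2 higher and 5 lower and left 79, which is 8.14%, against 14.6% (8.84% higher and 5.75% lower). The median log2 fold change was -0.07 in mutants and -0.09 in wild type, beside 0.00 and 0.03 over all tested genes. Taken by line, 6.98% were called in the line where the gene was high (1 higher and 5 lower) and 11.6% in the line where it was low (3 higher and 7 lower). Of the lower genes, 12 had at most 3 counts in every mutant library, so their TCDD effect there could hardly be measured, and the shares of members called are not comparable with those of all tested genes.

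Calls in both lines were made for 3 genes, each in the same direction. The gene si:ch211-62a1.3, named col6a4b in the table of gene names and tied to human COL6A6, a collagen VI chain, had 3.71, 2.98, 2.93 and 4.41 CPM in mutants with TCDD, against 1.41, 1.34, 0.909 and 1.36 CPM with DMSO. In wild type it had 20.0, 21.5 and 14.9 CPM with TCDD, against 8.36, 8.28 and 8.81 CPM with DMSO. The exposures did not overlap in either line, and it rose by 1.48 ± 0.19 in mutants and 1.13 ± 0.18 in wild type (edgeR adjusted p = 3.59e-05 and 0.00127). Both calls were kept in every alternative run. The difference between the lines in the TCDD effect was not tested for any of the 86.

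The gene ostf1, for osteoclast stimulating factor, an SH3-domain protein, had 2.11, 2.59, 3.16 and 1.14 CPM in mutants with TCDD, against 4.18, 6.43, 3.82 and 5.79 CPM with DMSO. In wild type it had 31, 25 and 23.6 CPM with TCDD, against 30.8, 59.5 and 48 CPM with DMSO. It fell by a log2 fold change of -1.19 ± 0.28 in mutants, without overlap, and by -0.81 ± 0.26 in wild type, where TCDD replicate 1 reached above DMSO replicate 1 (edgeR adjusted p = 0.00311 and 0.0422). The wild-type call was lost without wild-type DMSO replicate 3 or 4, wild-type TCDD replicate 3 or 4, or mutant TCDD replicate 1 or 2, with log2 fold changes of -0.81 to -0.60 and edgeR adjusted p of 0.0523 to 0.144.

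The rrm2 copy ENSDARG00000078069 fell with TCDD by log2 fold changes of -0.63 ± 0.17 in mutants and -0.69 ± 0.13 in wild type (edgeR adjusted p = 0.00815 and 0.00365), and its exposures did not overlap in either line. The mutant call was lost in limma-voom (adjusted p = 0.0627). The copy ENSDARG00000020711 had -0.01 ± 0.29 in mutants and 0.99 ± 0.37 in wild type (edgeR adjusted p = 0.990 and 0.0785), and the wild-type value passed the threshold without wild-type DMSO replicate 1 or wild-type TCDD replicate 1 (1.34 and 1.39, adjusted p = 0.0458 and 0.00727). The sum of the copies moved by -0.02 in mutants and by -0.42 in wild type on the log2 scale.

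The actc1a ID ENSDARG00000076126 rose in mutants with TCDD by 0.83 ± 0.29 and had -0.23 ± 0.19 in wild type (edgeR adjusted p = 0.0312 and 0.468). Its copy ENSDARG00000042535 rose in mutants by 0.93 ± 0.23 and had 0.25 ± 0.27 in wild type (edgeR adjusted p = 0.00485 and 0.590). The mutant call of ENSDARG00000076126 was lost in limma-voom (adjusted p = 0.230). It was also lost without mutant DMSO replicate 1 or 2 or mutant TCDD replicate 2, 3 or 4, with log2 fold changes of 0.68 to 0.83 and edgeR adjusted p of 0.0573 to 0.0993. 

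The other calls rested on low counts or on few libraries. With TCDD si:dkey-172h23.2 had 1, 1, 0 and 1 counts in mutants, against 5, 17, 2 and 3 counts with DMSO (edgeR log2 fold change -2.97 ± 0.78, adjusted p = 0.00683). CABZ01046087.1 had 2, 2, 0 and 1 counts in mutants with TCDD, against 3, 8, 6 and 3 counts with DMSO (edgeR log2 fold change -1.91 ± 0.59, adjusted p = 0.0180). Of si:ch211-127i16.2 mutants had 0 counts in the 4 TCDD libraries, against 0, 9, 1 and 1 counts with DMSO (edgeR adjusted p = 0.0278), both near the floor of 3 counts. All 3 calls were lost in limma-voom (adjusted p = 0.0518 to 0.115). Without mutant DMSO replicate 2, which held the highest DMSO count in each, the adjusted p was 0.0576 for CABZ01046087.1 and 0.133 for si:ch211-127i16.2, and the si:ch211-127i16.2 call was also lost without mutant TCDD replicate 1, 2 or 4 (adjusted p = 0.0513 to 0.0524).

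Moderate falls in mutants were called at CABZ01002768.1, with a log2 fold change of -0.66 ± 0.20, and CU633991.2, with -0.64 ± 0.21 (edgeR adjusted p = 0.0146 and 0.0262). The call at CABZ01002768.1 was lost without mutant DMSO replicate 4 (-0.56, adjusted p = 0.0528). That at CU633991.2 was lost without mutant DMSO replicate 3 or 4 or mutant TCDD replicate 1 or 3 (-0.62 to -0.46, adjusted p = 0.0520 to 0.0703). In wild type slc25a15b fell by a log2 fold change of -1.14 ± 0.30, si:ch211-57b15.1 by -1.48 ± 0.39 and BX465228.2 by -2.04 ± 0.53 (edgeR adjusted p = 0.0181, 0.0187 and 0.0169). ENSDARG00000100690 rose there by 1.46 ± 0.41 (edgeR adjusted p = 0.0254). The slc25a15b call was lost without wild-type DMSO replicate 1 or TCDD replicate 3 (-0.75 and -0.95, adjusted p = 0.111 and 0.0843). The si:ch211-57b15.1 call was lost without wild-type DMSO replicate 1 or TCDD replicate 1 or 3 (-1.08, -1.16 and -1.49, adjusted p = 0.109, 0.0642 and 0.0572). The BX465228.2 call was lost without wild-type TCDD replicate 1 (-1.72, adjusted p = 0.0587). The ENSDARG00000100690 call was lost without wild-type DMSO replicate 1 or 4 or TCDD replicate 4 (1.28, 1.42 and 1.03, adjusted p = 0.0965, 0.0699 and 0.141).

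**Figure D5:**
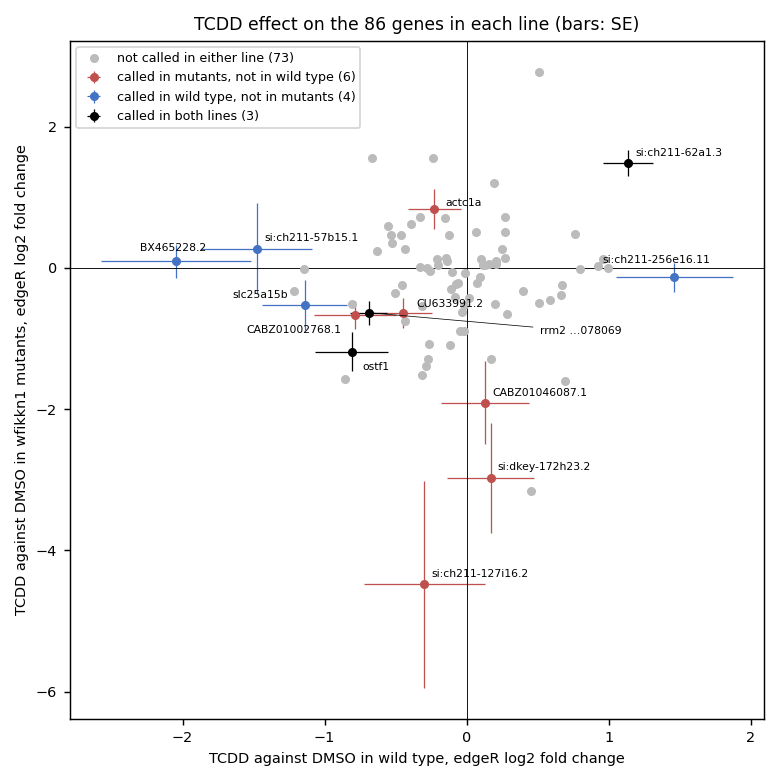
TCDD against DMSO log2 fold change from edgeR for each of the 86 genes, with the value in wfikkn1 mutants on the vertical axis and that in wild type on the horizontal axis; bars are SE, drawn for called genes. Most genes were called in neither line (73), 3 were called in both, and si:ch211-62a1.3 lies highest among these.

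The 86 genes shared features that the rule had not used. A clone or locus name stood for 50% of them, against 15.2% of the tested genes with a group mean of at least 2 CPM. A human gene was listed for 50% of them in the authors' deposited tables, against 79.3% of the genes in those tables at that level. By annotation 77 were protein-coding, 5 processed transcripts, 2 lincRNAs, 1 a microRNA and 1 antisense. Strand use in counting is not stated, so counts of the antisense gene cannot be told apart from those of its partner. The authors' deposited tables of the line listed all 86 in both exposures, among 3220 genes in DMSO and 5455 in TCDD. They cover the same line comparisons as the rule, so the choice of genes largely fixes that count. Their tables of TCDD listed 9 of the 86 among 7244 genes for mutants and 6 among 2871 for wild type.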

How the data were processed

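Poly(A) RNA of zebrafish embryos was sequenced with strand-marking kits, as 100 bp single-end reads over 6 lanes, per the labels' protocols. The labels list 16 samples; the 14 with a count column were used, and the wild-type replicates numbered 2 were not analysed here. The deposited values are raw read counts per gene; the submitters' processing notes list GRCz11, HTSeq 0.12.4, HISAT2 2.2.0, SAMtools 1.10, cutadapt 1.8.1 and edgeR, and the annotation release and strand setting are not given in the sources used here. The authors' deposited comparison tables hold log2 ratios, p-values with FDR, and an F score per gene; they served for names, human genes and the listing of members.

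CPM was taken by column total. edgeR 4.0.16 (R 4.3.3; filterByExpr, TMM, 1 mean per group over 14 libraries, quasi-likelihood test, Benjamini-Hochberg over 20098 genes, called under 0.05) gave log2 fold changes; SE was derived by dividing them by the root of the F statistic. TMM factors ran from 0.97 to 1.02 and the biological coefficient of variation was 0.151. Intervals from 3 counts cover counting error only. Tested on simulated data with changes set only in well-counted genes, the fit found 85.1% to 92.5% of 2-fold changes over the 4 comparisons. It found 44.8% to 64.2% of 1.5-fold changes and called 5 to 9 unchanged genes. Recovery near the floor of 3 counts was thus not measured. Copies were found by an identical name, letter case aside, in the authors' deposited tables or the table of gene names. Copies whose names differ by a letter in both sources could thus be missed. Named with values were the 10 widest named genes per direction, opposed copies, immune families, the 6 smallest TCDD p per line, those nearest the threshold and the 3 of widest spread; the others were chosen after their values were seen. The members, lists and rule were chosen with earlier results of these data known. Alternatives were RLE scaling, other filters, DESeq2 1.42.0, limma-voom (limma 3.58.1), only the groups compared, a replicate block, sample number as a term, other thresholds of the rule, and each library left out. Of the members this rule names or the text could describe, 2 are not reported here; 1 of them was left out of the gene order results and the figures of levels, and both are in the counts over the 86.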

Additional observations from a re-analysis of the deposited data

Results flagged for a closer look

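In 64 sets of a gene and a mutant group of 4 libraries, limited to lower genes with a group mean of at least 2 CPM and all higher genes, 4 values stood apart from the other 3 by more than a gap test allows at 95%; chance gives about 1 in 20. The gene rbfox1l had 1.07 CPM in mutant DMSO replicate 4, against 12 to 14 CPM in the other 3. The gene atp6v0a2b had 4.93 CPM in mutant TCDD replicate 3, the highest of its group. In the same pool sox19a had 10.2 CPM, also the highest of its group. The gene sc:d217 had 2.57 CPM in mutant DMSO replicate 2, against 3.06 to 3.09 CPM in the other 3. No gene had TCDD effects that ran in opposite directions in all libraries of the 2 lines.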

How the results depend on the processing

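The number of genes taken depended on the thresholds. With a pseudocount of 1 it was 8 higher and 38 lower, with 0.1 it was 37 and 108, with a difference of at least 3 it was 3 and 18, and with at least 1.5 it was 41 and 111; with each library left out it was 16 to 20 higher and 60 to 74 lower. All 18 and 68 genes were again taken under TMM or RLE scaling, with 18 and 71 in all. Among members with TCDD in mutants, calls were 1 higher in limma-voom and, with each library left out, 1 to 3 higher and 6 to 8 lower. In wild type they were 1 higher and 3 lower with only the 2 groups compared, and 1 to 4 higher and 2 to 7 lower with each library left out; without wild-type TCDD replicate 3 it was 2 lower, and without wild-type DMSO replicate 3 it was 4 higher. Copies not among the members were called 8 times in TCDD with no filter on low counts, and 3 to 5 times in DMSO and 4 to 6 times in TCDD with each library left out. Genes of the lists were called 72 to 111 times in DMSO and 88 to 141 times in TCDD with each library left out, against 106 and 133. Same-numbered samples did not deviate together (r = -0.217 to 0.100), and the main fit used no pairs. With 3 or 4 libraries per group this cannot show that no samples were paired. With the replicate number as a block, members called were 3 higher and 7 lower in mutants and 2 higher and 5 lower in wild type, copies 5 and 5, and list genes 86 and 110; with it ostf1 in wild type was no longer called (adjusted p = 0.0662) and ldb2a in DMSO was (adjusted p = 0.0401). No called value changed sign among the 33 single-gene results; 1 uncalled value did, the TCDD effect of rrm2 ENSDARG00000020711 in mutants, which ran from -0.06 to 0.03 over the alternatives. The cause of these shifts was not tested. Depth limits genes with at most 3 counts in the low line.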
